A study of Mus musculus with 7 samples.

Results

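The VEGF family members described here are the ligands Vegfa, Vegfb, Vegfc and Pgf, the receptor tyrosine kinases Kdr (VEGFR2), Flt1 (VEGFR1) and Flt4 (VEGFR3), and the neuropilin co-receptors Nrp1 and Nrp2. They were taken by gene symbol, and all 9 are among the 12756 genes of the table. A test across all genes covered 8 of them among 10899 genes, since Pgf had at least 1 CPM (reads of a gene scaled to a fixed library total of 1000000) in too few libraries. The libraries compared are 4 from adult C57BL/6 mice given an antibody against Dll4 (anti-Dll4) and 3 from such mice given a control IgG. Endothelial cells carry Dll4 as a ligand for Notch receptors. Mice of both groups carry Cdh5-CreERT2 and the Rpl22 tm1.1Psam allele, so that ribosomes of cells in which the Cdh5 promoter drives Cre carry an HA tag, and retinal RNA bound to these ribosomes was pulled down with an anti-HA antibody (RiboTag). No label ties a library to an animal of its own, so that p-values here reflect only how far these libraries lie apart, which may be partly technical.

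VEGF ligands are secreted dimers that bind receptor tyrosine kinases on endothelial cells. Vegfa signals mainly through Kdr and drives the division, migration and permeability of blood vessel cells, while Flt1 binds Vegfa tightly, signals weakly and limits the ligand that reaches Kdr. Vegfb and Pgf bind Flt1. Vegfc binds Flt4, the receptor best known for lymphatic growth and also made by sprouting blood vessels. Neuropilins hold VEGF at the cell surface and also bind semaphorins. In the retina, Müller glia and other neural cells are known sources of Vegfa, and Notch signalling started by Dll4 is known to restrain Kdr and Flt4 in sprouting vessels and to raise Flt1.

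The sequences before the transcription starts of Kdr, Flt1 and Vegfa are shown because these are the 3 members whose level relative to endothelial marker RNA differed between the groups (values further on). Each is the RefSeq sequence of the 250 bases before an annotated start in GRCm38.p6, read 5′ to 3′ on the strand of the gene. Capitals mark the letters TGGGAA, the core that the Notch partner RBPJ binds, and ACGTG or GCGTG, the core of the hypoxia response element, on either strand.
Kdr, chr5:75978456-75978705, minus strand: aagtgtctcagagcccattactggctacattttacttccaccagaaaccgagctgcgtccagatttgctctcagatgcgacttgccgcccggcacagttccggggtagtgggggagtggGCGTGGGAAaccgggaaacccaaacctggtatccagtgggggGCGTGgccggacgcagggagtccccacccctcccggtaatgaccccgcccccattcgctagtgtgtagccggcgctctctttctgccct
Flt1, chr5:147726012-147726261, minus strand: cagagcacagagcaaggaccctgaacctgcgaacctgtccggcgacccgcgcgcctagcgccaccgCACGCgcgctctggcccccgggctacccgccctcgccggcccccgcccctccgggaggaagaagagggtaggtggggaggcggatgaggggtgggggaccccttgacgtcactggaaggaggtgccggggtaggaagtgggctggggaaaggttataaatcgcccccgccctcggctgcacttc
Vegfa, chr17:46032378-46032627, minus strand: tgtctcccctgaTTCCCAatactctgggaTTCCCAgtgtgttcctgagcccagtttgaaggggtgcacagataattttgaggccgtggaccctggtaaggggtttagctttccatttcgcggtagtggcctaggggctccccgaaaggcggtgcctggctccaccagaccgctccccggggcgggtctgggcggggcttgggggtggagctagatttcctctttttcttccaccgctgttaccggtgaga
The Kdr window holds GCGTG at 2 places, and the first of them overlaps a TGGGAA. The Flt1 window holds 1 GCGTG on the other strand, and the Vegfa window holds 2 copies of TGGGAA on the other strand. A second annotated start of Vegfa, at chr17:46025164-46025413 on the minus strand, holds both kinds of core. Over the 11 annotated windows of the 9 members, TGGGAA occurred in 3 windows, of the 2 members Kdr and Vegfa. A hypoxia core occurred in 7 windows, each of another member. Vegfa is among these 7 only through its second start, and whether that window acts as a promoter was not tested. Of all 32851 such windows in the table, 21.6% hold TGGGAA and 38.6% hold a hypoxia core. These matches describe letters only and were not tested for binding.

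The libraries held 1356192 to 1771086 reads in listed genes, so that 3 reads, the floor taken here as the one-sided 95% limit of a count of 0, correspond to 1.69 to 2.21 CPM. Intervals and floors cover counting error only. The endothelial label was checked against 25 general endothelial markers chosen without the VEGF family, of which 23 were in the table and all 23 had reads in both groups. Their summed level was 4759.9 ± 838 CPM in anti-Dll4 libraries (SD, n = 4) and 1826 ± 638 CPM in control IgG libraries (SD, n = 3). The groups did not overlap, with 4304, 4155, 5988 and 4593 CPM in anti-Dll4 1 to 4 against 1497, 2562 and 1421 CPM in control IgG 1, 3 and 4 (exact permutation p = 0.0286, the smallest that 35 splits allow, and 0.371 after Benjamini-Hochberg adjustment over 13 marker lists). Rod markers, which endothelial cells should lack, were at 11217 to 21157 CPM in anti-Dll4 libraries and 25162 to 26789 CPM in control IgG libraries, again without overlap. They made up 1.63% of the CPM in anti-Dll4 and 2.61% in control IgG libraries, against 0.476% and 0.183% for the endothelial markers, so the pull-down also held RNA of other retinal cells. Müller glia markers, at 2012 to 3074 CPM in anti-Dll4 and 1877 to 2948 CPM in control IgG libraries, overlapped. In such bulk RNA, fewer cells of a type and less RNA per cell cannot be told apart.

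None of the 8 tested VEGF family transcripts passed an adjusted p of 0.05 between anti-Dll4 and control IgG libraries. Across all 10899 genes 13 passed, 0.119% of them, and each of those 13 was higher in anti-Dll4 libraries. With limma at an unadjusted p under 0.05, 401 genes were higher and 372 lower, Vegfa being the only member among them. With voom on whole reads 40 genes passed, 24 of them lower in anti-Dll4 libraries, and again 0 members, so the direction of the calls across the table turned with the method. Of the 8 changes, 4 were positive and 4 negative, with a median log2 change of -0.15, against -0.14 over all tested genes. The family median thus lay close to that of all genes.

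**Figure D1:**
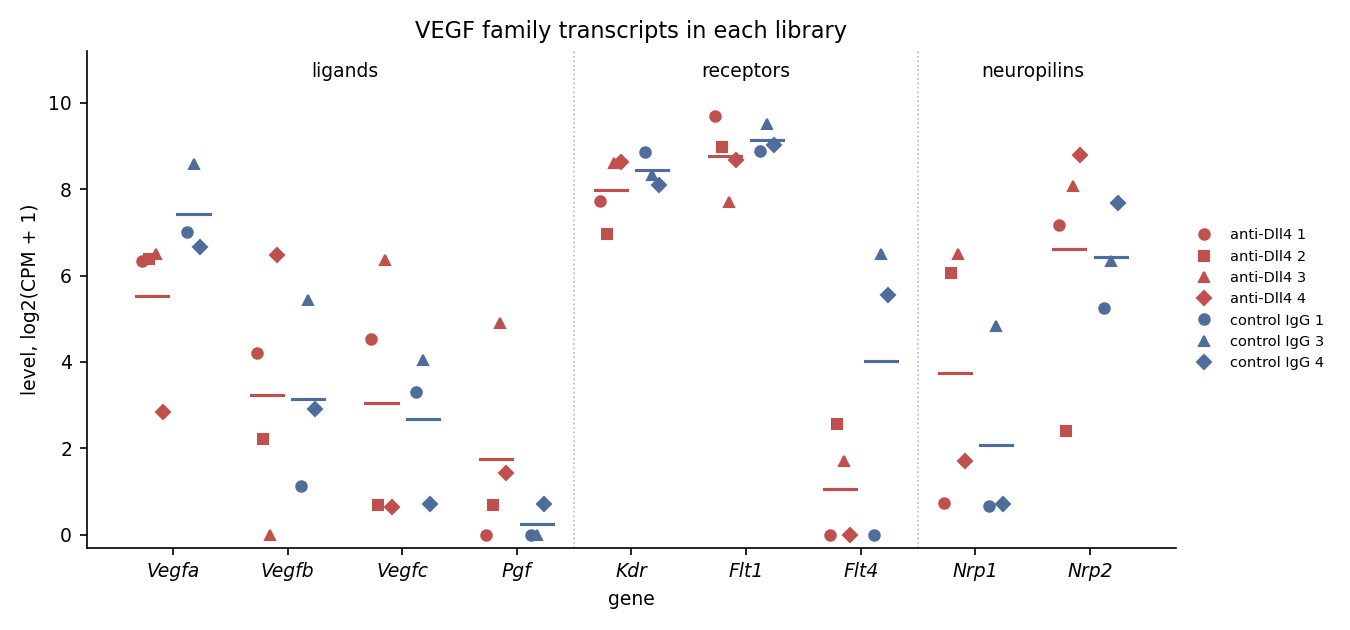
Level of each VEGF family transcript as log2(CPM + 1) in each library, with anti-Dll4 libraries in red to the left of control IgG libraries in blue, marker shapes for the library number and bars for group means. Kdr and Flt1 lie at 123 CPM or more in every library, and Vegfa has every anti-Dll4 library under every control IgG library. Libraries of the same group lie far apart for Flt4, Nrp1, Nrp2, Vegfb and Vegfc.

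Among the ligands, Vegfa was the member nearest to a difference. It had 80.4, 82.6, 89.5 and 6.21 CPM in anti-Dll4 1 to 4, against 127, 380.5 and 100.4 CPM in control IgG 1, 3 and 4. Every anti-Dll4 library thus lay below every control IgG library, with the closest pair at 158 and 154 reads in anti-Dll4 3 and control IgG 4, whose two-sided 95% Poisson intervals in CPM overlap (76.1 to 104.6 and 85.1 to 118). Vegfa was the only one of the 8 tested members whose groups did not overlap, and 3.75% of all tested genes had all anti-Dll4 libraries below all control IgG libraries. The limma log2 change of Vegfa was -1.89 ± 0.88 (SE, 95% interval -3.73 to -0.057), with an adjusted p of 0.695 over all genes and an exact permutation p of 0.114 (n = 4 and 3). The library anti-Dll4 4, with 11 Vegfa reads, carried much of the size: without it the change was -1.004 (limma adjusted p = 0.761, range over alternatives 0.571 to 0.930). Rod and endothelial marker sums also separated the groups. With the rod level as a covariate the Vegfa change was -2.22 ± 1.18 (SE), again short of the threshold. Since rod RNA differed along with the antibody, that fit cannot well tell the 2 apart. Of the astrocyte markers 2 of 5 were in the table, at a sum of 0 to 5.10 CPM in anti-Dll4 and 0 to 64.2 CPM in control IgG libraries. The 2 did not run alike. Gfap had reads only in anti-Dll4 3 and 4, at 5.10 and 3.95 CPM, so the control sum was S100b alone. The part of glial RNA in the Vegfa values was not tested.

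The other ligands were low and uneven. Vegfb, a Flt1 ligand linked to heart and fat tissue, had 17.4, 3.67, 0 and 88.6 CPM in anti-Dll4 1 to 4, against 1.18, 42.0 and 6.52 CPM in control IgG 1, 3 and 4. Vegfc, the main Flt4 ligand, had 22.1, 0.612, 81.6 and 0.565 CPM in anti-Dll4 1 to 4, against 8.85, 15.5 and 0.652 CPM in control IgG 1, 3 and 4. In both genes each group held a library under the floor of 3 reads and another at 15.5 CPM or more, and the groups overlapped throughout. Their log2 changes were 0.074 ± 1.86 for Vegfb (95% interval -3.78 to 3.93) and 0.37 ± 1.82 for Vegfc (95% interval -3.42 to 4.16), intervals wide enough to hold changes of more than 3 log2 units either way. Pgf, the placental growth factor, had 0, 1, 51 and 3 reads in anti-Dll4 1 to 4, against 0, 0 and 1 read in control IgG 1, 3 and 4. Its signal was thus a single library, anti-Dll4 3, at 28.9 CPM, and no change was fitted (exact permutation p = 0.371, n = 4 and 3).

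Of the receptors, Kdr and Flt1 were read deeply in all 7 libraries. Kdr had 212, 123, 389.7 and 392 CPM in anti-Dll4 1 to 4, against 466, 322 and 274 CPM in control IgG 1, 3 and 4. Its group means were 279 ± 134 CPM in anti-Dll4 (SD, n = 4) and 354 ± 99.8 CPM in control IgG libraries (SD, n = 3). The groups overlapped, with anti-Dll4 3 and 4 inside the control range and anti-Dll4 1 and 2 below it. The log2 change was -0.46 ± 0.47 (95% interval -1.43 to 0.52, limma adjusted p = 0.870).

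Flt1, the VEGF-binding receptor that also exists as a soluble trap, had 827, 503, 206 and 405 CPM in anti-Dll4 1 to 4, against 473, 720.4 and 522 CPM in control IgG 1, 3 and 4. Its means were 485 ± 259 CPM in anti-Dll4 (SD, n = 4) and 572 ± 131 CPM in control IgG libraries (SD, n = 3). The anti-Dll4 values lay on both sides of the control range, from the highest of all 7 libraries in anti-Dll4 1 to the lowest in anti-Dll4 3. The log2 change was -0.38 ± 0.41 (95% interval -1.24 to 0.48, limma adjusted p = 0.881), and it was 0.53 with the rod level as a covariate. The table gives 1 value per gene, so soluble and membrane forms of Flt1 were not separated.

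Within a library, Kdr and Flt1 reads did not keep a fixed ratio, a measure that does not depend on how a library is scaled. Flt1 over Kdr was 3.91, 4.09, 0.529 and 1.03 in anti-Dll4 1 to 4, against 1.02, 2.24 and 1.91 in control IgG 1, 3 and 4. The ratio was thus above every control IgG library in anti-Dll4 1 and 2 and below every one in anti-Dll4 3, and the mean log2 ratio differed by 0.077 between the groups (exact permutation p = 0.914, also 0.914 after Benjamini-Hochberg adjustment over 3 ratios, n = 4 and 3). The sign of that difference changed when anti-Dll4 1, anti-Dll4 2 or control IgG 1 was left out, over a range of -0.34 to 0.64. The log2 ratio of Vegfa to Kdr differed by -1.46 (exact permutation p = 0.429, adjusted 0.643, n = 4 and 3) and that of Nrp1 to Kdr by 2.26 (exact permutation p = 0.343, adjusted 0.643, n = 4 and 3). With a library left out the difference for Vegfa to Kdr ran from -2.10 to -0.34 (without anti-Dll4 4; -0.83 without control IgG 3), and that for Nrp1 to Kdr from 1.11 (without anti-Dll4 2) to 3.81 (without control IgG 3).

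Flt4, which in blood vessels marks sprouting cells, was seen mainly in 2 of the 3 control IgG libraries. It had 0, 8, 4 and 0 reads in anti-Dll4 1 to 4, which is 0, 4.89, 2.27 and 0 CPM, against 0, 121 and 70 reads in control IgG 1, 3 and 4, which is 0, 89.2 and 45.6 CPM. Control IgG 1 therefore stood with the anti-Dll4 libraries, and the floor of 3 reads is 1.77 CPM there. The log2 change of -2.95 ± 1.68 (95% interval -6.43 to 0.54) did not pass the threshold (limma adjusted p = 0.738), and it ran from -4.95 without control IgG 1 to -1.70 without control IgG 3. The lymphatic marker list overlapped in sum at 100.3 to 267 CPM in anti-Dll4 and 113 to 242 CPM in control IgG libraries. Its 4 genes in the table were Prox1, Pdpn, Reln and Lyve1, and which cells their RNA came from was not tested. Lyve1, seen in too few libraries to be fitted, had 0 reads in every anti-Dll4 library, against 4, 58 and 0 reads in control IgG 1, 3 and 4. Of the 3 fitted genes of the list, the log2 change was positive for 2 and negative for 1.

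The neuropilins swung more between libraries of a group than between the groups. Nrp1, which binds Vegfa together with Kdr, had 0.670, 66.1, 88.9 and 2.26 CPM in anti-Dll4 1 to 4, against 0.590, 27.3 and 0.652 CPM in control IgG 1, 3 and 4. Nrp2, the co-receptor of Flt4 and of class 3 semaphorins, had 143, 4.28, 269 and 439.8 CPM in anti-Dll4 1 to 4, against 37.2, 79.6 and 204 CPM in control IgG 1, 3 and 4. High Nrp1 libraries, at 27.3 CPM and above, occurred in both groups, and so did libraries with 1 read. The log2 changes were 1.68 ± 1.89 for Nrp1 (95% interval -2.24 to 5.60, limma adjusted p = 0.884) and 0.18 ± 1.09 for Nrp2 (95% interval -2.07 to 2.44, limma adjusted p = 0.984). In 4 of the 8 tested members (50%), Flt4, Nrp1, Vegfb and Vegfc, a group held both a library with at most 3 reads and one with at least 30, and the same was true of 46.0% of all tested genes. Such swings were thus about as common across the table as in the VEGF family.

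**Figure D2:**
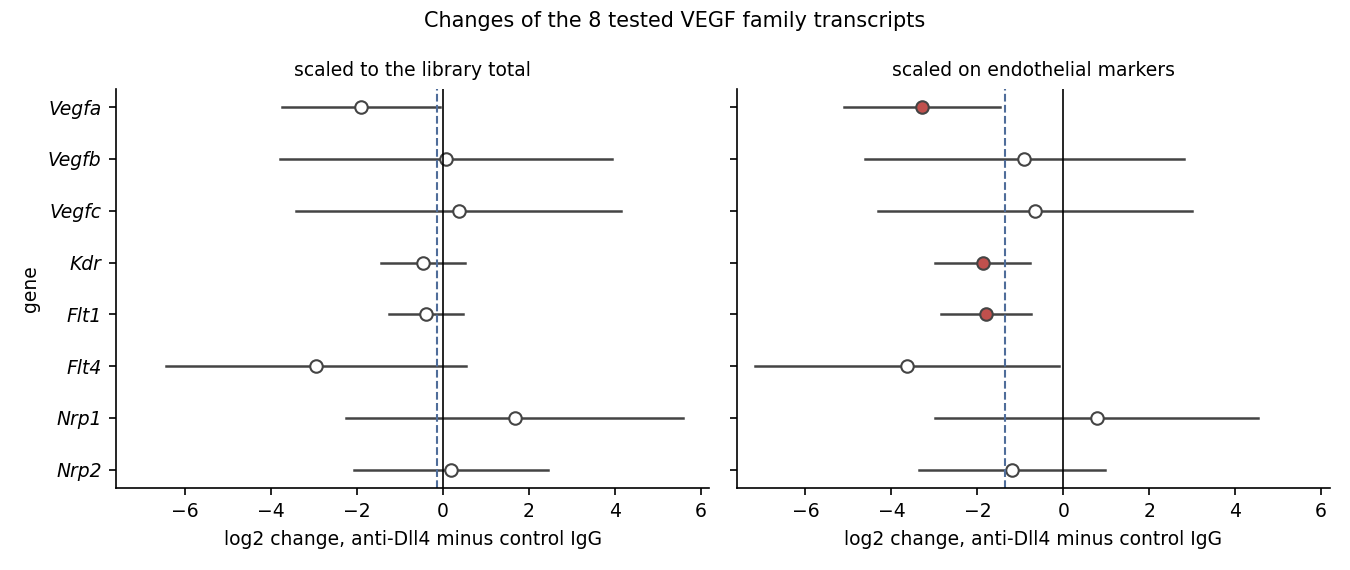
Log2 change (anti-Dll4 minus control IgG) of the 8 tested members with 95% intervals from limma, for CPM scaled to the library total and for CPM scaled on 23 endothelial markers. Filled points passed an adjusted p of 0.05 and dashed lines mark the median of all tested genes, -0.14 on the library scale and -1.36 on the endothelial scale.

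Because endothelial marker RNA took a larger share in anti-Dll4 libraries, the family was also set against it. On the library scale, the change was positive for 21 of the 23 markers (median 1.60), and 0 of them passed the threshold in limma (9 at an unadjusted p under 0.05). The changes ran from -1.32 for Ptprb, an endothelial phosphatase, to 3.93 for Ramp2, a co-receptor for adrenomedullin. The changes of Kdr and Flt1 each lay below those of 21 of the 23 markers. Per 1000 CPM of marker RNA, Kdr had 49.2, 29.6, 65.1 and 85.3 CPM in anti-Dll4 1 to 4, against 311, 126 and 193 CPM in control IgG 1, 3 and 4. Flt1 had 192, 121, 34.4 and 88.3 in anti-Dll4 1 to 4, against 316, 281 and 367 in control IgG 1, 3 and 4. Vegfa had 18.7, 19.9, 14.9 and 1.35 in anti-Dll4 1 to 4, against 85.1, 149 and 70.6 in control IgG 1, 3 and 4. In these 3 genes every anti-Dll4 library lay below every control IgG library on this scale, as was the case for 22.9% of all tested genes.

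In the limma fit scaled on endothelial markers, Vegfa, Kdr and Flt1 were lower in anti-Dll4 libraries, 3 of the 8 tested members. The same fit called 528 of all 10899 genes lower, 4.84%, and 1 higher. The change was -3.28 ± 0.88 for Vegfa (95% interval -5.09 to -1.47, adjusted p = 0.0381), -1.87 ± 0.54 for Kdr (-2.98 to -0.76, adjusted p = 0.0453) and -1.80 ± 0.51 for Flt1 (-2.85 to -0.74, adjusted p = 0.0445). This scaling moved the median of all genes by -1.22, to -1.36. Relative to that median Kdr was at -0.51, Flt1 at -0.44 and Vegfa at -1.92, and 33.1%, 35.5% and 7.05% of all tested genes ranked below them. Kdr and Flt1 thus lay within the bulk of all genes, and Vegfa lay toward the low end of the table. The other 5 tested members did not pass, with log2 changes of -3.64 ± 1.71 for Flt4 (limma adjusted p = 0.179), 0.77 ± 1.82 for Nrp1, -1.20 ± 1.05 for Nrp2, -0.90 ± 1.80 for Vegfb and -0.65 ± 1.77 for Vegfc (limma adjusted p of 0.486 to 0.853).

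The 3 calls on the endothelial scale depended on single libraries. The Kdr call was lost without any one of anti-Dll4 1, 2 and 4 and control IgG 1 and 4, the Flt1 call without any one of anti-Dll4 3 and 4 and control IgG 1 and 4, and the Vegfa call without any one of anti-Dll4 4 and control IgG 1, 3 and 4. The limma adjusted p over 11 alternatives ran from 0.0216 to 0.388 for Kdr, 0.0328 to 0.259 for Flt1 and 0.0217 to 0.248 for Vegfa, and the sign of each stayed negative in all 11. Rod markers were also lower on this scale, with 10 of 16 past the threshold, and whether the 3 transcripts came from endothelial cells was not tested.

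**Figure D3:**
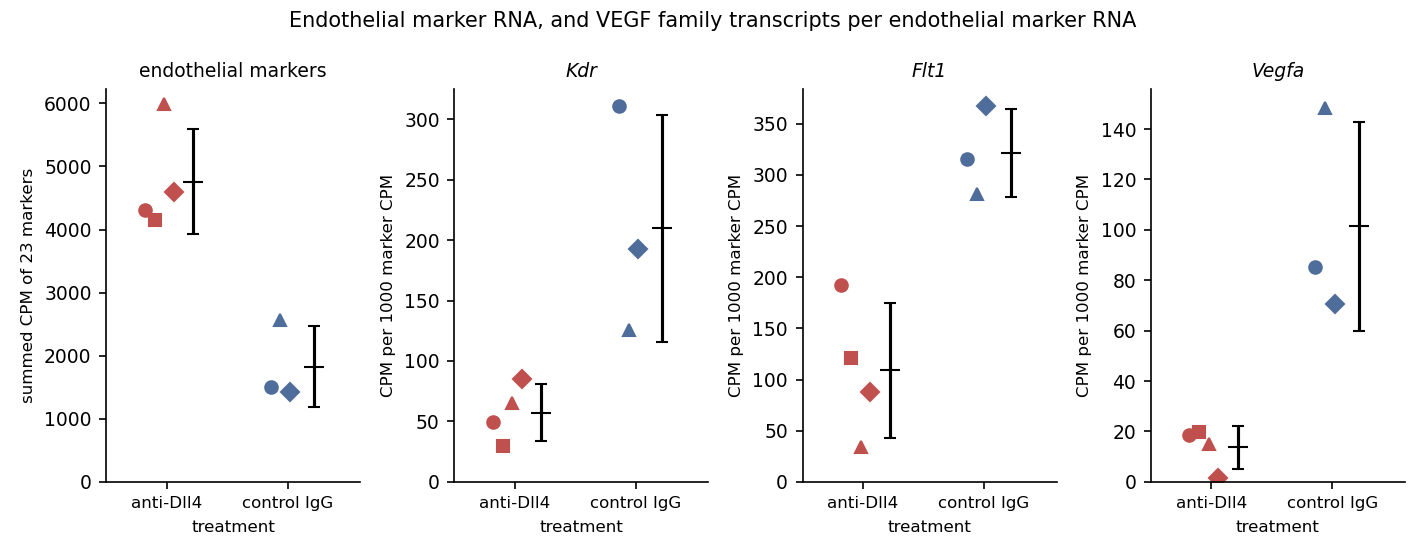
Summed CPM of 23 endothelial markers, and CPM of Kdr, Flt1 and Vegfa per 1000 CPM of these markers, in anti-Dll4 libraries (red) and control IgG libraries (blue), with black bars for the mean ± SD (n = 4 and 3). Anti-Dll4 libraries hold more marker RNA, and per marker RNA all 4 lie below all 3 control IgG libraries for each of the 3 transcripts.

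Genes that act beside the family were followed in lists drawn from the known pathway. Of 41 tested genes of proximal VEGF receptor signalling (kinases, adaptors and phospholipases that the receptors engage), 24 had a log2 change above 0 and 17 one below 0. Their median was 0.46 against -0.14 over all genes, and 0 passed the threshold in limma (6 at an unadjusted p under 0.05, 5 of them higher). At that unadjusted level 401 of all 10899 tested genes were higher and 372 lower. The unadjusted counts of the lists that follow stand beside these same numbers. Nearest to it was Mapkapk2, a kinase downstream of p38, with 28.8 to 282 CPM in anti-Dll4 and 9.59 to 15.0 CPM in control IgG libraries (log2 change 3.35 ± 0.95, limma adjusted p = 0.303). Pik3r1, a regulatory subunit of PI3 kinase, followed with 293 to 582 CPM in anti-Dll4 and 92.9 to 270.4 CPM in control IgG libraries (1.34 ± 0.47, limma adjusted p = 0.528). Akt2 had at most 1.13 CPM in anti-Dll4 libraries, against 0, 62.7 and 16.9 CPM in control IgG 1, 3 and 4 (-3.11 ± 1.33, limma adjusted p = 0.690). Mapkapk2 and Pik3r1 kept the groups apart, as did 3.84% of all tested genes with anti-Dll4 libraries higher, and Akt2 did not.

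Of 17 tested genes that VEGF is known to induce in endothelium or that damp its signal, the change was positive for 13 and negative for 4 (median 0.38), and 0 passed in limma (2 at an unadjusted p under 0.05, both higher). Adm, the vasodilator peptide adrenomedullin, had 41.6 to 84.4 CPM in anti-Dll4 libraries and 0, 10.3 and 0 CPM in control IgG 1, 3 and 4 (4.65 ± 1.58, limma adjusted p = 0.482). Spry1, a feedback inhibitor of receptor tyrosine kinases, had 13.4, 39.8, 2.27 and 0 CPM in anti-Dll4 1 to 4, and 0 reads in all 3 control IgG libraries (limma adjusted p = 0.695). Ets1, an endothelial transcription factor, overlapped between the groups (2.30 ± 1.47, limma adjusted p = 0.765). All 4 anti-Dll4 libraries thus stood above the controls for Adm, as for 3.84% of all tested genes, while anti-Dll4 4 had no Spry1 read.

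Receptor partners, phosphatases and trafficking genes had 10 positive and 8 negative changes of 18 tested (median 0.072), and 0 passed in limma (1 higher at an unadjusted p under 0.05). Clic4, a chloride channel family protein of endothelial tube formation, was at 67.8 to 232 CPM in anti-Dll4 and 35.4 to 63.2 CPM in control IgG libraries (1.50 ± 0.70, limma adjusted p = 0.695). Myo6, a motor that moves endocytosed receptors, had a change of -1.46 ± 0.87 and Cdh5, the VE-cadherin that binds Kdr, one of 1.70 ± 1.10, both with overlapping groups (limma adjusted p = 0.751 and 0.768). Semaphorins, plexins and other neuropilin partners had 9 positive and 7 negative changes of 16 tested (median 0.29), and 0 passed in limma (1 higher at an unadjusted p under 0.05). The TGF-beta receptors lay on opposite sides within that list. Tgfbr2 was at 86.2 to 268 CPM in anti-Dll4 and 0.590 to 64.5 CPM in control IgG libraries (3.04 ± 1.08, limma adjusted p = 0.529), and Tgfbr1 at 0 to 19.4 CPM in anti-Dll4 and 31.9 to 53.4 CPM in control IgG libraries (-3.40 ± 1.69, limma adjusted p = 0.706). Crmp1, a mediator of semaphorin signals in neurons, was at 6.03 to 20.8 CPM in anti-Dll4 and 23.6 to 93.8 CPM in control IgG libraries (-1.89 ± 1.24, limma adjusted p = 0.772). These 3 genes, picked by their small p, kept the groups apart without passing the test, beside the 3.84% (higher) and 3.75% (lower) of all tested genes.

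All 6 tested genes of the other VEGF and PDGF ligands and of VEGF-C processing, a list that also holds the lymphatic genes, had positive changes (median 0.40), and 0 passed in limma (0 also at an unadjusted p under 0.05). Nearest were Prox1, the lymphatic transcription factor that retinal neurons and glia also make (0.89 ± 0.98, limma adjusted p = 0.882), Pdpn (1.38 ± 1.62, limma adjusted p = 0.887) and Pdgfb, the endothelial ligand that recruits pericytes (0.38 ± 0.55, limma adjusted p = 0.912). The regulators of hypoxia-inducible factor, through which low oxygen raises Vegfa, had 5 positive and 6 negative changes of 11 tested (median -0.091), and 0 passed in limma (1 lower at an unadjusted p under 0.05). Cited2, which competes with this factor for its co-activator, was at 5.66 to 92.0 CPM in anti-Dll4 and 156 to 201 CPM in control IgG libraries (-2.15 ± 0.86, limma adjusted p = 0.662). Its groups did not overlap, as for the 3.75% of all tested genes that were lower in this way. Ppargc1a, a co-activator that can raise Vegfa, had a change of -2.37 ± 1.77 and Egln1, an oxygen-sensing hydroxylase, one of 0.72 ± 0.67, with overlapping groups (limma adjusted p = 0.806 and 0.857).

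Of 22 tested hypoxia-inducible genes other than Vegfa, Adm again among them, the change was positive for 10 and negative for 12 (median -0.17). At an unadjusted p under 0.05 in limma 4 were higher and 0 lower, beside 401 higher and 372 lower of all 10899 tested genes. In limma 1 of the 22 passed the threshold. With voom, too, 1 gene of these 7 lists passed. Ddit4, an inhibitor of mTOR signalling that hypoxia and other stresses induce, was higher in anti-Dll4 libraries (1.64 ± 0.28, limma adjusted p = 0.0158). It had 1789.9, 1182, 2020 and 1976 CPM in anti-Dll4 1 to 4, against 518, 476 and 661 CPM in control IgG 1, 3 and 4. The Ddit4 change was close to the endothelial marker median of 1.60. On the endothelial scale 0 of the 22 genes passed as higher, so the Ddit4 call was not kept there. Vegfa, also a known hypoxia target, was lower in anti-Dll4 libraries but did not pass on this scale. Whether hypoxia had a part in the level of either gene was not tested. Among other settings, the Ddit4 call was lost without anti-Dll4 1, anti-Dll4 4 or control IgG 1, with the rod level as a covariate and without the mean-variance trend. Dll4 itself had 45.5, 183, 119.5 and 139 CPM in anti-Dll4 1 to 4, against 1.18, 11.8 and 22.2 CPM in control IgG 1, 3 and 4 (3.67 ± 1.10, limma adjusted p = 0.358). Its groups did not overlap, as for the 3.84% of all tested genes that were higher in this way.

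**Figure D4:**
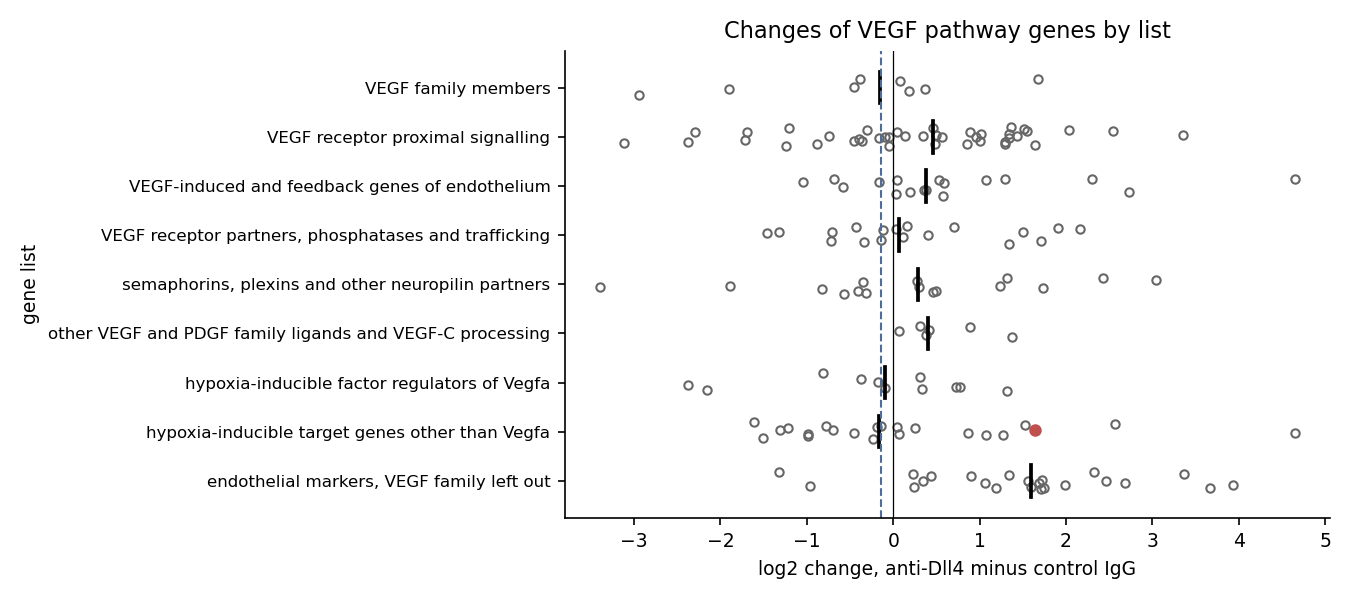
Log2 change (anti-Dll4 minus control IgG, library scale) of each tested gene of the VEGF family, of 7 pathway lists and of the endothelial markers, with black bars for list medians, a dashed line for the median of all tested genes (-0.14) and a filled red point for the gene past the threshold, Ddit4. The family median of -0.15 lies on the dashed line, while that of the endothelial markers is 1.60.

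The genes whose levels ran most like those of each member over the 7 libraries were read from log2(CPM + 1), as a description over libraries that share their scaling and their groups. For Vegfa, Usp20, a deubiquitinating enzyme, had an r of 0.977, and 72 of 4291 candidate genes reached 0.9. Usp20 was at 16.9 to 81.0 CPM in anti-Dll4 and 91.2 to 177 CPM in control IgG libraries, so that, as for Vegfa, the groups did not overlap. Kdr ran most like Lsm8 (r = 0.964) and Ypel2 (r = 0.961), and Flt1 most like Hirip3 (r = 0.966) and Pdcd2l (r = 0.963). Flt4 ran most like Srrm1 (r = 0.964) and Ccdc39 (r = 0.943), Nrp1 like Nedd4 (r = 0.950) and Ccdc115 (r = 0.945), and Nrp2 like Nckap1 (r = 0.971) and Ythdf3 (r = 0.952). For Vegfb the closest were Agpat1 (r = 0.963) and Mknk2 (r = 0.960), and for Vegfc Rer1 (r = 0.978) and Mrto4 (r = 0.958). None of these genes is a VEGF family member or an endothelial marker, and likeness over 7 libraries was not tested.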

How the data were processed

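Per the labels' protocols, retinas were lysed, HA-tagged ribosomes were pulled down, and libraries were made with a QuantSeq 3′ kit. The submitters' processing notes name cutadapt, TopHat2 and bedtools, without versions, and the build hg19, a human build although the symbols are those of mouse genes. The authors deposited log10 values. Turned back, these were CPM plus 1, and 100% of values were whole multiples of 1 read (tolerance 1e-06), so whole reads could be computed. Libraries carry the number of their table column. The column of control IgG 1 matches no control title (the title left carries 15), so it entered the control group without a replicate number.

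Levels were log2(CPM + 1). Genes reaching 1 CPM in 3 or more libraries were fitted in limma 3.58.1 in R 4.3.3 (antibody as the only term, mean-variance trend, two-sided, Benjamini-Hochberg adjustment over all 10899 genes, threshold 0.05), checked on simulated data. In these simulated data the spread within a group was capped, below that of Flt4 or Nrp1 here, so genes that uneven were not covered. The design had assumed log2 values, and its test was kept. A change is a difference of mean log2(CPM + 1), which understates the change of low genes. A second fit divided CPM by the summed CPM of the 23 endothelial markers. Single values were tested by exact permutation over 35 splits. Members and lists were chosen with earlier results of these data known. Named genes are all members, Dll4, per list the genes past the threshold or up to 3 with the smallest p, and per member with a mean of at least 10 CPM the 2 genes with the highest Pearson r. Some genes that this rule takes are not reported here. Alternatives were other pseudocounts, filters, scalings and fits, a rod covariate, a replicate block and leaving out each library. No input RNA was analysed here, and strand use in counting is not given in the sources used here.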

Additional observations from a re-analysis of the deposited data

Results flagged for a closer look

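Vegfa in anti-Dll4 4 stood apart from the other 3 anti-Dll4 libraries. It had 6.21 CPM there, from 11 reads (95% Poisson interval 3.10 to 11.1 CPM), against 80.4, 82.6 and 89.5 CPM in anti-Dll4 1 to 3. On the log2(CPM + 1) scale its gap to the nearest of the others was 0.958 of the range of the group, above the 95% limit of Dixon's test for 4 samples. Chance puts about 1 in 20 groups past that limit. All 9 members were looked at in this way, so that some member past the limit by chance is likelier than 1 in 20. Kdr, at 392 CPM in the same library, was the highest of the anti-Dll4 group. The Vegfa change was -1.89 with this library and -1.004 without it on the library scale. On the endothelial scale it was -3.28 with it and -2.42 without it (limma adjusted p = 0.0606 without it, range over alternatives 0.0217 to 0.248).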

How the results depend on the processing

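On the library scale the number of VEGF family members past the threshold stayed at 0 in all 16 alternatives. The number of all genes past it, 13, was 0 without the mean-variance trend, 40 with voom on whole reads, 7 with upper-quartile scaling, 1 with the rod covariate, 3 with the replicate block (2 of them lower) and 3 to 22 with a library left out. The list genes past it, 1, were 0 without the trend, with the rod covariate and with the block, and 0 to 1 with a library left out. On the endothelial scale all genes past it, 529, became 229 when scaled on the mean log2 of the markers, 809 with pseudocount 5, 20 without the trend, 169 with the block and 0 to 960 with a library left out. Members past it, 3, became 1 with the mean log2 scaling, 0 without the trend, 1 with the block and 0 to 2 with a library left out.

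Signs reversed among members that had not passed. Kdr was 0.39 with the replicate block, and Flt1 0.53, Nrp1 -0.36, Nrp2 -1.47 and Vegfc -1.79 with the rod covariate. Vegfb was -0.065 with pseudocount 0.5, -0.18 with voom and -0.93 with the block. With a library left out Nrp2 ran from -0.54 to 1.59, Vegfb from -1.01 to 1.21 and Vegfc from -0.73 to 1.17. On the endothelial scale Vegfc was 0.16 with the block, and with a library left out Nrp1 ran from -0.014 to 2.07, Nrp2 from -1.92 to 0.12, Vegfb from -1.97 to 0.059 and Vegfc from -1.71 to 0.077. The log2 ratio of Flt1 to Kdr ran from -0.34 to 0.64, an alternative added after the data were seen. Except where fewer samples entered, the cause was not tested.

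The Flt4 change was -5.17 with the block. Numbers 3 and 4 occur in both groups, and the block rests on 2 pairs. Deviations of same-numbered libraries correlated at 0.046 and 0.067 over 10899 genes, against -0.022 and -0.031 for libraries of unlike number. The labels do not say whether same-numbered libraries share more than a number, and this was not tested. A filter of at least 10 CPM left Flt4 untested. Reads limit Flt4, Nrp1, Vegfb, Vegfc and Pgf, whose lowest libraries held 0 or 1 read.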

Other observations

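Vegfd, the second ligand of Flt4, is no member of the set described and was not tested. It had 0, 0, 2 and 1 reads in anti-Dll4 1 to 4, against 27, 1 and 1 reads in control IgG 1, 3 and 4, so that its signal was nearly all in control IgG 1, the control library in which Flt4 had 0 reads.

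On the endothelial scale further genes of the pathway lists were lower in anti-Dll4 libraries, beside 4.84% of all tested genes. Among them were Plxnb1, a semaphorin receptor (log2 change -1.82 ± 0.52), Cited2 (-3.51 ± 0.92) and Hk2, a hexokinase (-2.19 ± 0.56), with limma adjusted p of 0.0287 to 0.0447. On the library scale none of these 3 passed the threshold in limma.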
